A study of Mus musculus with 2 samples.

Results

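CG methylation was examined in primary osteoblasts at 10 genes that belong to the osteoclast and myeloid lineage, Ptprc, Spi1, Cd68, Csf1r, Itgam, Acp5, Oscar, Mmp9, Calcr and Nfatc1. They were chosen by name as genes of another lineage, from the 21938 protein-coding genes in GENCODE M21, and each was taken with 10 kb on each side. Whole-genome bisulfite sequencing (WGBS) was done on cells from wild type (WT) mice and from TCKO mice, in which Prx1-Cre was combined with floxed (fl/fl) alleles of Tet1, Tet2 and Tet3. Both groups were of strain C57BL/6 and 3-day-old, the cells were isolated from the calvarial bone and cultured for 3 days, and each group was 1 library. Prx1-Cre is active in early mesenchyme of the limb and part of the skull and not in blood-forming cells, so cells of blood origin in such a culture would keep their Tet genes. Whether a library came from 1 animal or from pooled animals is not given in the sources used here. With 1 library per genotype no difference could be checked against replicates, and the tests are of these libraries, not of the genotypes.

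Osteoclasts are the bone-resorbing cells. They arise from blood-forming monocyte precursors and not from the mesenchyme that gives osteoblasts. TET enzymes oxidise 5-methylcytosine, a step towards its removal, and promoters and enhancers that are in use in a cell type usually have low CG methylation there. Among these genes, Spi1 encodes the myeloid transcription factor PU.1, and Nfatc1 encodes a transcription factor that drives osteoclast differentiation. Csf1r encodes the receptor for CSF1, Calcr the calcitonin receptor, and Oscar an immunoglobulin-like receptor of osteoclasts. Ptprc encodes the pan-leukocyte phosphatase CD45, Itgam the integrin CD11b, and Cd68 a lysosomal membrane glycoprotein of macrophages. Acp5 encodes tartrate-resistant acid phosphatase and Mmp9 a secreted gelatinase.

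The genes lie at chr1:138062861-138175708 (Ptprc), chr2:91082390-91115756 (Spi1), chr11:69664213-69666153 (Cd68), chr18:61100598-61132149 (Csf1r), chr7:128062640-128118491 (Itgam), chr9:22126727-22135711 (Acp5), chr7:3609813-3616157 (Oscar), chr2:164940780-164955850 (Mmp9), chr6:3685680-3764714 (Calcr) and chr18:80606205-80713071 (Nfatc1), in GRCm38. Spi1, Csf1r, Itgam and Mmp9 are on the plus strand and the others on the minus strand. A methylation level is the percentage of calls that were methylated (C) among all calls (C + T), pooled over the CG cytosines of both strands in a region. The WT library had 5.97 and the TCKO library 5.11 calls per CG cytosine of the reference, and the pooled levels were 70.2% and 76.3%. The 95% intervals (Wilson method) speak for counting error alone, because neighbouring calls can share a read, and removal of duplicate reads is not described. Bulk DNA was sequenced, so an intermediate level within each cell and a mixture of cells with high and low levels cannot be told apart.

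At the TSS, 8 of the 10 genes had over 50% methylation in WT osteoblasts, while Nfatc1 and Calcr were low. The TSS was the 5′ end of the annotated gene, and the window spanned 1 kb on each side. At annotated TSS farther inside, WT levels were lower for Mmp9 (23.3%) and Acp5 (35.9% and 44.9%), as given below. Ptprc had 78.4% of 305 calls in WT (73.4% to 82.6%) and 80.3% of 309 calls in TCKO. Itgam had 75.4% (378 calls) and 83.0% (318 calls). Acp5 had 72.4% (272 calls) and 83.3% (210 calls). These were the most methylated TSS windows of the set in WT. Spi1 had 70.8% (106 calls) in WT and 84.0% (75 calls) in TCKO. Oscar had 69.3% (218 calls) and 76.6% (214 calls). Cd68 had 64.2% (165 calls) and 74.7% (83 calls). Csf1r, for which the libraries differed most, had 61.9% of 278 calls in WT (56.0% to 67.4%) and 80.2% of 187 calls in TCKO (73.9% to 85.3%). Mmp9 had 53.3% (246 calls) and 47.0% (232 calls). Calcr had 16.8% of 286 calls in WT (12.9% to 21.5%) and 20.8% of 183 calls in TCKO (15.5% to 27.2%). In contrast to all of these, the CpG-rich Nfatc1 window, with 316 CG cytosines against 30 to 100 in the others, had 0.347% (288 calls) in WT and 0% in TCKO, where 0 of 271 calls allows up to 1.11%. In WT the intervals of Nfatc1 and Calcr overlapped no other, while from Mmp9 up to Ptprc each overlapped that of its neighbour in the order.

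**Figure D1:**
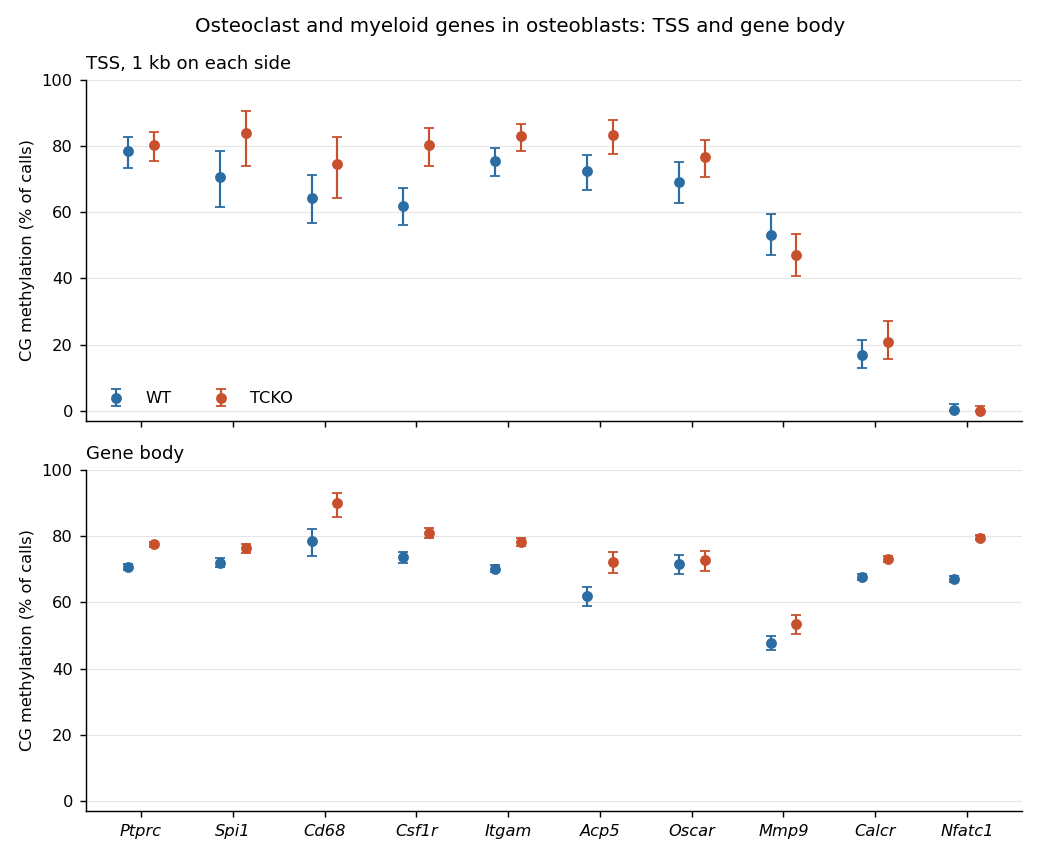
CG methylation level (y axis, % of calls) of each gene (x axis) at the TSS with 1 kb on each side (top) and over the gene body (bottom), in the WT and TCKO libraries; points are pooled levels and bars 95% Wilson intervals. At the TSS, Nfatc1 and Calcr lie at or below 20.8% in both libraries and the other 8 genes at 47.0% or above.

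Levels were higher in TCKO at 8 of the 10 TSS windows, but 2 were called higher in TCKO (2-sided Fisher exact test, Benjamini-Hochberg adjusted p below 0.05 over 21693 genes), against 23.3% of all genes. Over all genes, 74.9% had a difference of at least −0.347 points (that of Nfatc1) and 57.1% of at least 1.90 points (that of Ptprc). Csf1r was higher by 18.3 percentage points (Newcombe 95% interval 9.98 to 26.1, adjusted p = 0.000297, Fisher exact test) and Acp5 by 10.9 points (3.40 to 18.04, adjusted p = 0.0278, Fisher exact test). None was called lower, against 2.31% of all genes. The other differences ran from −6.27 points at Mmp9 to 13.2 points at Spi1, and the intervals of Mmp9 (−15.1 to 2.68), Ptprc (−4.51 to 8.30), Calcr (−3.11 to 11.5), Cd68 (−1.95 to 21.5), Oscar (−1.02 to 15.6) and Nfatc1 (−1.94 to 1.08) included 0. The intervals of Itgam (1.54 to 13.5) and Spi1 (0.621 to 24.6) did not, but neither passed the adjusted threshold. Among all genes with a WT level over 50% at the TSS, 15.6% were called higher and the median difference was 3.28 points; the median of the 8 such genes here was 9.04 points. A difference at least as large as that of Csf1r was found in 6.44% of all genes. For Acp5 the direction depended on how sites were weighted, as the mean of the levels of single cytosines with at least 4 calls decreased by 3.97 points. The same weighting gave −2.58 points at Spi1 and 4.90 points at Mmp9, both of the opposite sign to the pooled values.

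Several of the genes have other annotated TSS of protein-coding transcripts, and there the picture differed for Mmp9 and Acp5. At the Mmp9 TSS 7439 bp downstream, 30 of 129 calls (23.3%) were methylated in WT against 39 of 88 (44.3%) in TCKO, 21.1 points higher (8.32 to 33.3, adjusted p = 0.0102, Fisher exact test). At the Acp5 TSS 3880 bp downstream it was 35.9% (329 calls) and 51.5% (206 calls, adjusted p = 0.00333, Fisher exact test). At that 5113 bp downstream it was 44.9% (301 calls) and 60.8% (194 calls, adjusted p = 0.00455, Fisher exact test). These inner windows thus had lower WT levels than the outer ones and higher levels in TCKO. At the Spi1 TSS 13706 bp downstream of the gene start WT had 82.7% (717 calls) and TCKO 84.4% (647 calls), and the difference had an interval from −2.28 to 5.60. At the Csf1r TSS 4974 bp downstream it was 77.4% (137 calls) and 85.7% (91 calls), which did not pass (adjusted p = 0.282, Fisher exact test). Spi1 and Csf1r were thus methylated at each of these TSS in both libraries. The Calcr TSS 1084 bp downstream was low as well, at 14.7% (211 calls) and 14.0% (129 calls), while that 11740 bp downstream was not, at 64.7% (139 calls) and 64.9% (111 calls). The second Nfatc1 promoter, 4898 bp downstream, had 29.8% (319 calls) and 23.7% (468 calls), with an interval from −12.4 to 0.187.

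Over the gene body the order was much flatter. In WT 9 of the 10 genes lay between 61.9% and 78.4%, and Mmp9 had 47.7%. Of the 10 bodies, 9 were called higher in TCKO, against 64.4% of all genes, and none lower, against 2.79%. Nfatc1, whose TSS did not differ, had the largest body difference, from 67.0% (11635 calls) to 79.5% (9952 calls), 12.5 points higher (11.3 to 13.6, adjusted p = 3.04e-93, Fisher exact test). Cd68 went from 78.4% to 90.0%, 11.5 points higher (5.87 to 16.9), and Acp5 from 61.9% to 72.1%, 10.1 points higher (5.78 to 14.4). Itgam was higher by 8.13 points, Csf1r by 7.34, Ptprc by 6.89, Mmp9 by 5.64, Calcr by 5.37 and Spi1 by 4.30. Oscar had 71.6% (961 calls) and 72.7% (812 calls) and was the gene without a call, with a difference of 1.07 points (−3.13 to 5.23, adjusted p = 0.696, Fisher exact test). The median body difference of the 10 genes was 7.11 points, beside 5.66 over all genes. In the 10 kb flanks the differences ran from −0.430 points downstream of Acp5 (−4.76 to 3.89) to 15.7 points downstream of Calcr (11.4 to 19.9).

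Other genes of the blood lineages, in lists put together by name, were read at the TSS by counts and medians, beside the 23.3% of all genes called higher and the 2.31% called lower. Of 10 other osteoclast genes 5 were called higher, with a median difference of 8.06 points, namely Dcstamp, Siglec15, Tnfrsf11a (the receptor RANK), Tfec and Clcn7. Of 20 other myeloid genes 5 were called higher (median 6.66), namely Cebpe, Fcgr1, Cx3cr1, Fgr and Csf3r, and of 10 lymphoid genes 1 (median 5.46), Cd8a. The called genes are named here after their values were seen. None of these 40 genes was called lower. The lowest WT levels were 3.95% at Mitf in the osteoclast list and 72.6% at Cd79a in the lymphoid list, and Mitf had 4.30% in TCKO. The median of the 10 genes described here was 7.50 points, and that of all 21693 genes 3.00. No gene of the osteoclast, myeloid or lymphoid lists was called with a difference over 20 points.

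Genes of the osteoblast lineage itself were read in the same way, with no test between lists. Of 14 osteoblast markers 7 were called higher and 1 lower, beside the same 23.3% and 2.31% of all genes, with a median difference of 13.0 points. Ibsp (bone sialoprotein) went from 45.6% to 84.6%, Dmp1 (dentin matrix protein) from 50.9% to 87.3%, Postn (periostin) from 39.8% to 69.8%, Phex from 46.0% to 74.0% and Col1a2 (a chain of type I collagen) from 8.54% to 34.7%. These were the genes called by over 20 points. Col1a1, the other type I collagen chain, had the lowest WT level of the list and stayed at 0.613% and 2.76%. In WT the TSS levels of the lymphoid genes lay between 72.6% and 79.8%. At or below 30% at the gene start, with inner TSS left out, lay 5 of the 14 osteoblast markers (35.7%) and 2 of the 10 osteoclast and myeloid genes (20%). The same held for 4 of the 10 other osteoclast genes (40%) and 3 of the 20 other myeloid genes (15%), beside 52.4% of all genes. By this share the osteoblast markers were not set apart from the other osteoclast genes. Their median WT level, 41.5%, was the lowest of these lists. The medians were 48.7% for the other osteoclast genes, 66.8% for the 10 genes described here, 67.1% for the other myeloid and 76.1% for the lymphoid genes. Over all genes the median was 27.4%. These levels describe the labelled cell type by its DNA, since expression was not analysed here.

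**Figure D2:**
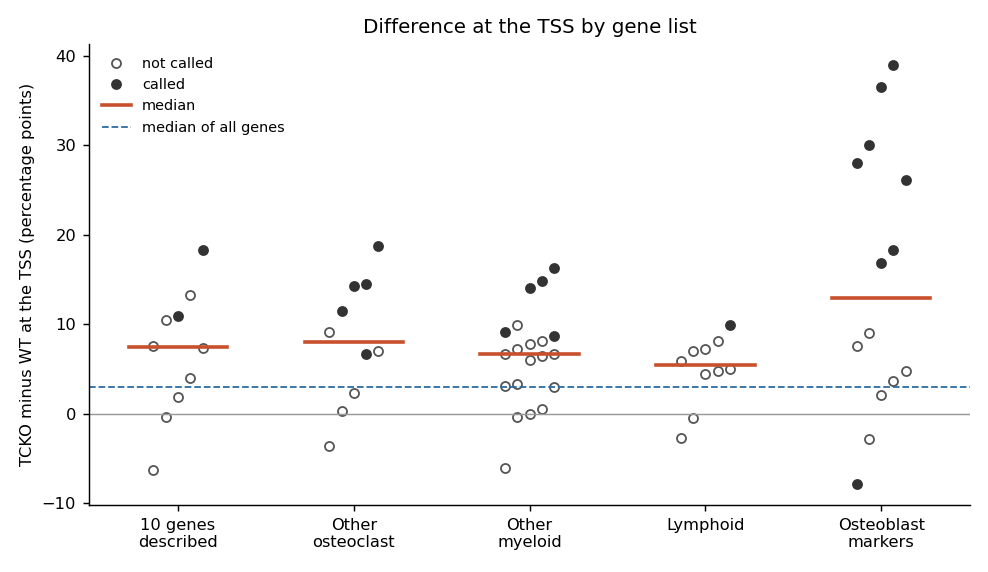
Difference of the TSS level between TCKO and WT (y axis, percentage points) for each gene of 5 lists (x axis); filled points were called by the Fisher exact test, open points were not, red bars are list medians and the dashed line is the median of all genes. The osteoblast markers have a median of 13.0 points and reach 39.0 points, and the 10 osteoclast and myeloid genes have 7.50 and reach 18.3 points.

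The loci were then divided into 200 bp bins. Bins counted as testable had 4 or more covered CG cytosines, both strands included, at a mean of 4 or more calls per cytosine in each library, which held for 634 (24.7%) of the 2568 bins with a CG. A hyper-CG-DMR bin was higher in TCKO by over 40 points at an adjusted p below 0.05 (2-sided Fisher exact test over 2487317 bins). Of the 634 bins, 20 (3.15%) were hyper-CG-DMR bins, against 2.91% of all testable bins, and none was a hypo-CG-DMR bin, against 0.0349%. The share in these loci was thus near that of the genome. Nfatc1 held 6 of them, Ptprc 4, Itgam 4, Calcr 3, Spi1 2 and Csf1r 1, while Cd68, Acp5, Oscar and Mmp9, with 17 to 29 testable bins each, held none. The middle of 13 of the 20 lay in an intron of the gene, and none lay within 1 kb of its TSS. Their levels ran from 0% to 53.6% in WT and from 52.9% to 95.2% in TCKO. Most bins of the loci were methylated in both libraries, with medians of 73.1% in WT and 80.7% in TCKO, and the median difference was 6.53 points, beside 4.76 over the genome.

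**Figure D3:**
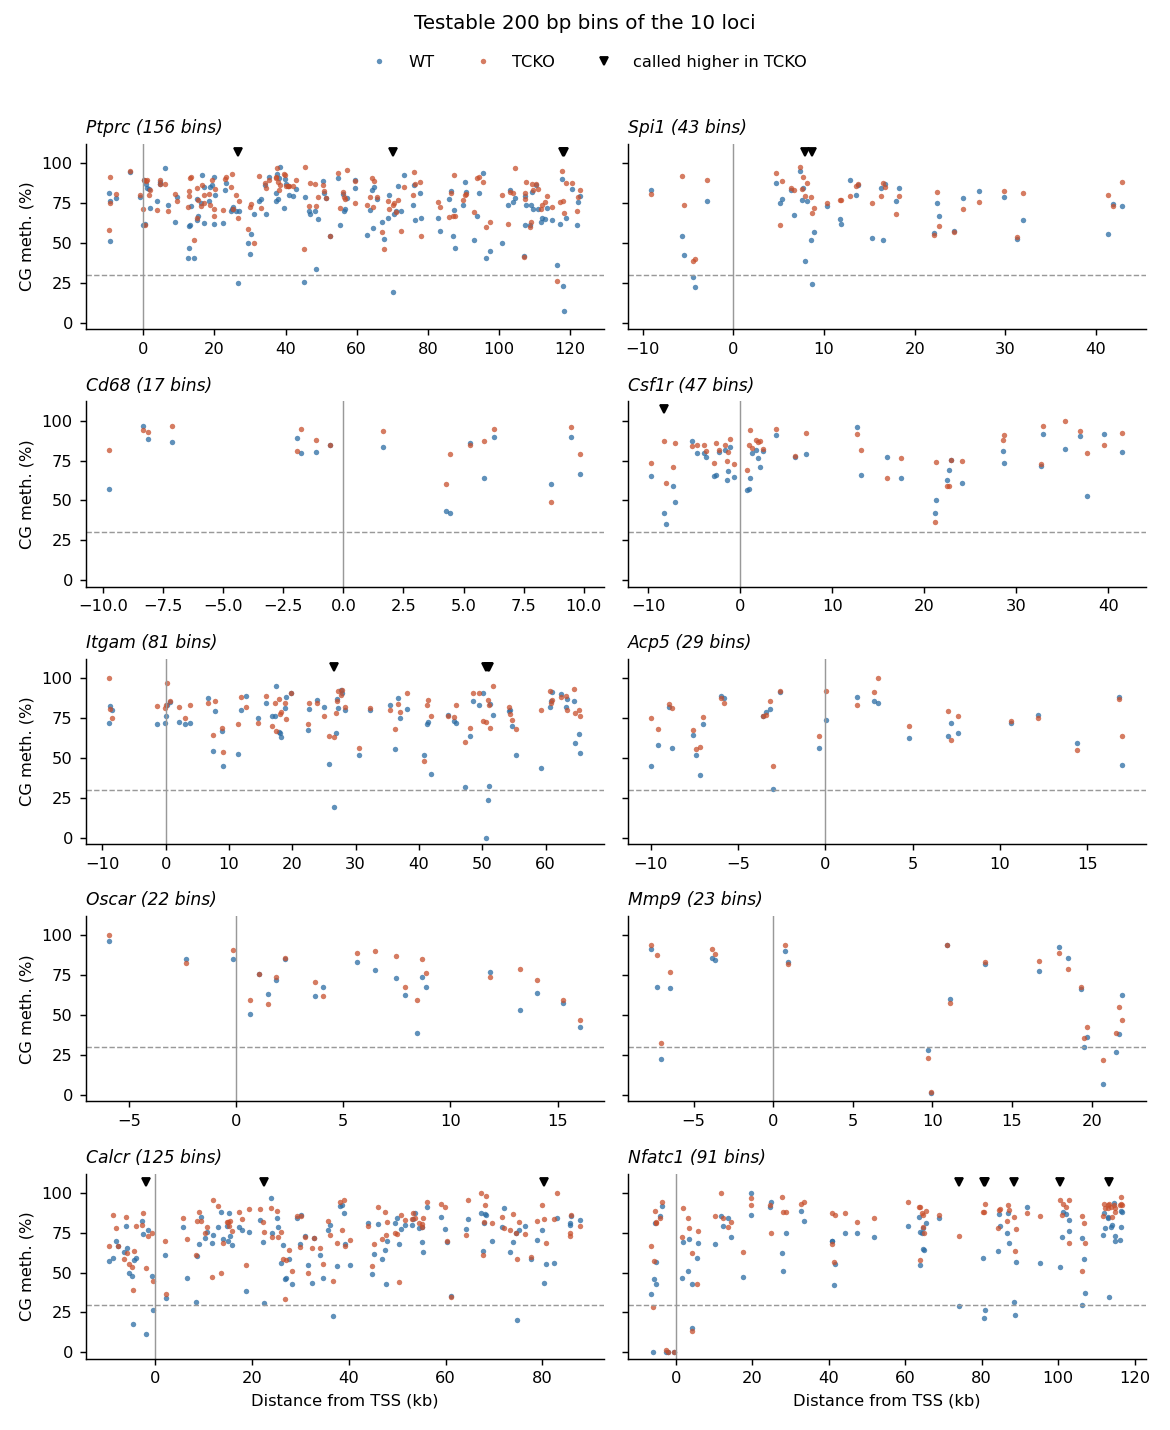
CG methylation level (y axis, %) of each testable 200 bp bin by its distance from the TSS (x axis, kb, positive downstream) at the 10 loci in WT and TCKO; triangles mark bins called higher in TCKO and the dashed line is the 30% limit for low bins. Most bins lie above the limit in both libraries, and the 20 called bins are spread over 6 loci, none of them within 1 kb of the TSS.

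Low stretches existed in WT osteoblasts at 6 of the 10 loci. A low bin was a testable bin at or below 30% in WT, and 32 (5.05%) of the 634 bins were low, against 4.75% of all testable bins. Runs of low bins gave 26 stretches, of which 8 lay at Nfatc1, 5 at Mmp9, 5 at Calcr, 4 at Ptprc, 2 at Spi1 and 2 at Itgam. None was found at Cd68, Csf1r, Acp5 or Oscar. The middle of 13 lay in an intron of the gene and of 1 in its last exon, 10 were intergenic, and 2 lay in Slc12a5, a neighbour of Mmp9. Most were short, with 20 of 26 made of 1 bin. The values nearest the limit were 30% at Nfatc1 and at Mmp9 inside it, and 30.9% at Calcr, 31.7% at Nfatc1 and 32.6% at Itgam outside it.

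Since the WT level chose these bins, their difference is a description, to be read beside low bins elsewhere. The 27 low bins over 1 kb from any protein-coding TSS lay at 22.5% in WT and at 52.9% in TCKO (medians), and 12 of them (44.4%) were hyper-CG-DMR bins, against 40.9% of such bins over the genome. Of the 5 low bins within 1 kb of a TSS none was, against 6.69% over the genome. The median difference of all 32 bins was 21.6 points, beside 27.4 over all low bins of the genome. With bins chosen on plus strand WT calls and read on minus strand calls, which the choice did not use, 13 of 16 bins of the loci were higher in TCKO and 3 lower, with a median of 21.7 points, beside 21.8 over the genome. These shares and medians of the loci were near those of the genome.

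The low stretches that rose most outside the Nfatc1 locus lay in Ptprc and Itgam. In Ptprc, the bin chr1:138105401-138105600 in intron 12 had 25 methylated of 131 calls (19.1%, 13.3% to 26.7%) in WT and 53 of 72 (73.6%, 62.4% to 82.4%) in TCKO (adjusted p = 7.92e-12, Fisher exact test). Downstream of Ptprc, chr1:138057201-138057800 went from 20.3% (69 calls) to 75.9% (108 calls). In Itgam, chr7:128113201-128113600, from coding exon 21 into intron 21, went from 17.7% (96 calls) to 82.7% (75 calls), and the bin next to it, 32.6% in WT, was called as well. These Itgam bins also lie in the overlapping gene model Gm49368. The Itgam bin chr7:128089201-128089400 in intron 12 went from 19.5% (118 calls) to 63.2% (87 calls, adjusted p = 3.05e-08, Fisher exact test). Both genes had a methylated TSS and a low intronic stretch in WT. Most WT calls came from the minus strand in Ptprc intron 12 (109 of 131), Itgam intron 12 (98 of 118) and Itgam exon 21 to intron 21 (80 of 96). The last of these had no plus strand call in TCKO. In Spi1, chr2:91091001-91091200 in intron 1, 4996 bp upstream of the nearest TSS, went from 24.6% (61 calls) to 68.9% (61 calls, adjusted p = 9.15e-05, Fisher exact test). Upstream of Calcr, chr6:3766601-3766800 went from 11.8% (68 calls) to 52.9% (34 calls, adjusted p = 0.000713, Fisher exact test).

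The sequences of these bins are shown because they were low in WT and called higher in TCKO with at least 50 calls in WT, and 1 Mmp9 bin is shown because it stayed low. They were read from the GRCm38 reference, 5′ to 3′ on the strand of the gene, at the positions given above, which for Itgam intron 21 is chr7:128113401-128113600 and for Mmp9 is chr2:164950401-164950600. Capitals mark each CG. The 2 Nfatc1 intron 9 bins that met the same limits are given below by their values alone.
Ptprc intron 12, minus strand: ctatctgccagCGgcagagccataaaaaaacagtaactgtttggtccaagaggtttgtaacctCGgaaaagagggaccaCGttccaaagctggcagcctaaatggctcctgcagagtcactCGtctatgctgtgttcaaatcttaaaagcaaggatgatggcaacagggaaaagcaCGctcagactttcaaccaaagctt
Itgam intron 12, plus strand: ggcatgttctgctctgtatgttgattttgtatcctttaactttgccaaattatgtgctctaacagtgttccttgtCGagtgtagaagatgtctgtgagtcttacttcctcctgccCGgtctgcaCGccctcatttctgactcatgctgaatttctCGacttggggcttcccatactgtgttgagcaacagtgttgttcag
Itgam intron 21, plus strand: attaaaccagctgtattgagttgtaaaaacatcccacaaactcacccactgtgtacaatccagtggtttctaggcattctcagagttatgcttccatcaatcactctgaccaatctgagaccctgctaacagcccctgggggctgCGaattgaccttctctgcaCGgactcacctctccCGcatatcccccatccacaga
Spi1 intron 1, plus strand: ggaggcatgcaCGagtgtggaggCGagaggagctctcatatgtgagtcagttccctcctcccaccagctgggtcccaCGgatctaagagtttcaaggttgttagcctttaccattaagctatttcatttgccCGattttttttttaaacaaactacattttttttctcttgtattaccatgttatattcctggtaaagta
Calcr upstream, minus strand: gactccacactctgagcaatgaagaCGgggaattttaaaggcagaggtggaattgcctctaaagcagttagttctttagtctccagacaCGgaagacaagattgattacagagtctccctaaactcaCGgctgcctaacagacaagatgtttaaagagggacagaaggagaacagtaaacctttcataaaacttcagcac
Mmp9 body, plus strand: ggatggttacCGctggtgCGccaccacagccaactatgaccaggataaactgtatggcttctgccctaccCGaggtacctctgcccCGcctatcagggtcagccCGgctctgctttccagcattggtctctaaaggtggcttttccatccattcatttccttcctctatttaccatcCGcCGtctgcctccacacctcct

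The 5 called bins held between 3 and 5 CGs in 200 bases, so each level rests on few sites. Counted from the 5′ end, the 5 CGs of Ptprc intron 12 had 20.7%, 3.70%, 0%, 14.3% and 51.7% in WT and 92.9%, 71.4%, 58.3%, 66.7% and 75% in TCKO, from 21 to 29 and 12 to 20 calls each. All of its CGs were thus higher in TCKO, and the last one was intermediate in WT. The 3 CGs of Itgam intron 21 had 54.2%, 8.33% and 8.33% in WT (24 calls each) and 89.5%, 73.7% and 94.7% in TCKO (19 calls each). The 4 CGs of Itgam intron 12 ran from 3.85% to 35.5% in WT and from 36.4% to 82.6% in TCKO. The 4 CGs of Spi1 intron 1 had 0%, 10%, 21.1% and 43.5% in WT (9, 10, 19 and 23 calls). In TCKO they had 76.9%, 78.6%, 61.1% and 62.5% (13, 14, 18 and 16 calls). The sites nearest the 5′ end were lowest in WT, but on only 9 and 10 calls. In the Calcr bin the levels went from 14.3% to 25%, from 12.0% to 40% and from 10.3% to 75%, on 8 to 29 calls. By contrast, the Mmp9 bin held 7 CGs and had 28.0% (143 calls) in WT and 23.3% (60 calls) in TCKO, and the bin next to it 1.09% (92 calls) and 2.00% (50 calls).

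At Mmp9 no low stretch of testable bins was called. Its own stretch, chr2:164950401-164950800 in intron 6 with part of an exon, had 17.4% of 235 calls in WT (13.1% to 22.8%) and 13.6% of 110 calls in TCKO (8.44% to 21.3%). The stretch 7080 bp upstream had 22.5% (71 calls) and 32.6% (46 calls). The 3 others lay at the promoter side or start of Slc12a5, a chloride transporter gene, with 6.94% to 30% in WT and 22.2% to 38.6% in TCKO. None of the 5 contained a hyper-CG-DMR bin, and the differences ran from −3.81 to 15.3 points. Of the WT calls of these Slc12a5 stretches at least 75% came from a single strand, as they did in 17 of all 26 stretches. Of the 235 WT calls of the stretch in Mmp9 intron 6, 229 were on the minus strand.

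Smaller differences, or fewer calls, marked the other low stretches of Ptprc, Spi1 and Calcr. In Ptprc intron 2, chr1:138149001-138149200 went from 25% (36 calls) to 65.6% (32 calls, adjusted p = 0.0240, Fisher exact test) and chr1:138130401-138130600 had 25.9% (85 calls) and 46.1% (76 calls, adjusted p = 0.0968, Fisher exact test). Upstream of Spi1, chr2:91077801-91078200 had 25% (96 calls) and 39.4% (104 calls), and neither of its bins passed. In Calcr, intron 15 had 20% (40 calls) and 58.3% (24 calls), which passed the adjusted threshold but was 38.3 points apart, just under the limit of 40. Calcr intron 3 had 22.9% (48 calls) and 44.7% (47 calls). The 2 other stretches upstream of Calcr had 26.7% (45 calls) and 44.7% (38 calls) at 586 bp from the TSS, and 18.1% (72 calls) and 39.4% (66 calls) at 4586 bp. All of these stretches had higher levels in TCKO, and 1 of them, that of 32 TCKO calls in Ptprc, was a hyper-CG-DMR bin.

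Nfatc1 held both kinds of low stretch. Around its first TSS, the stretch 429 bp upstream had 0% in both libraries (102 and 94 calls, where 0 calls allow up to 2.94% and 3.19%), and that 2229 bp upstream had 0% (316 calls, up to 0.949%) in WT and 1.03% (291 calls) in TCKO. The stretch beside its second promoter had 15.0% (120 calls) and 13.2% (159 calls). Farther away, 73971 bp and more downstream of the TSS, 4 intronic or exonic stretches were low in WT and higher in TCKO. The most deeply read, of 400 bp in intron 9, went from 24.6% (18.2% to 32.4%, 138 calls) to 90.6% (85.4% to 94.0%, 180 calls), and both of its bins were called (adjusted p = 8.67e-19 and 5.23e-12, Fisher exact test). Another in intron 9 had 23.4% (64 calls) and 63.4% (71 calls), which is 39.9 points and just under the limit. Intron 8 had 29.2% (24 calls) and 72.7% (33 calls, adjusted p = 0.0259, Fisher exact test), and the last exon 30% (50 calls) and 51.3% (39 calls, adjusted p = 0.304, Fisher exact test). A stretch of 2 CGs 6029 bp upstream had 0% (23 calls, up to 13.0%) and 28.6% (21 calls). The stretches near its promoters thus stayed low, while the 4 that lay 73971 bp and more downstream were higher in TCKO. Of its 91 testable bins 79 were higher in TCKO, beside 474 of 634 over all 10 loci.

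The other 8 of the 20 hyper-CG-DMR bins were above the limit for low bins in WT. In Nfatc1, 2 of them lay in intron 9, with 31.7% (41 calls) and 53.6% (28 calls) in WT and 84.8% (33 calls) and 95.2% (21 calls) in TCKO, and 1 lay downstream of the gene within a lincRNA gene, with 35% (20 calls) and 92.9% (28 calls). The 1 of Csf1r lay upstream of the gene and had 42.3% (111 calls) and 87.3% (118 calls, adjusted p = 1.12e-10, Fisher exact test). At Calcr, intron 3 had 30.9% (97 calls) and 75.3% (85 calls), and a bin downstream of the gene 43.2% (155 calls) and 83.8% (160 calls). In Spi1 intron 1 a further bin had 38.6% (70 calls) and 79.7% (59 calls), and that of Itgam intron 21 was given above. All of these were thus intermediate in WT and at 75.3% or above in TCKO.

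**Figure D4:**
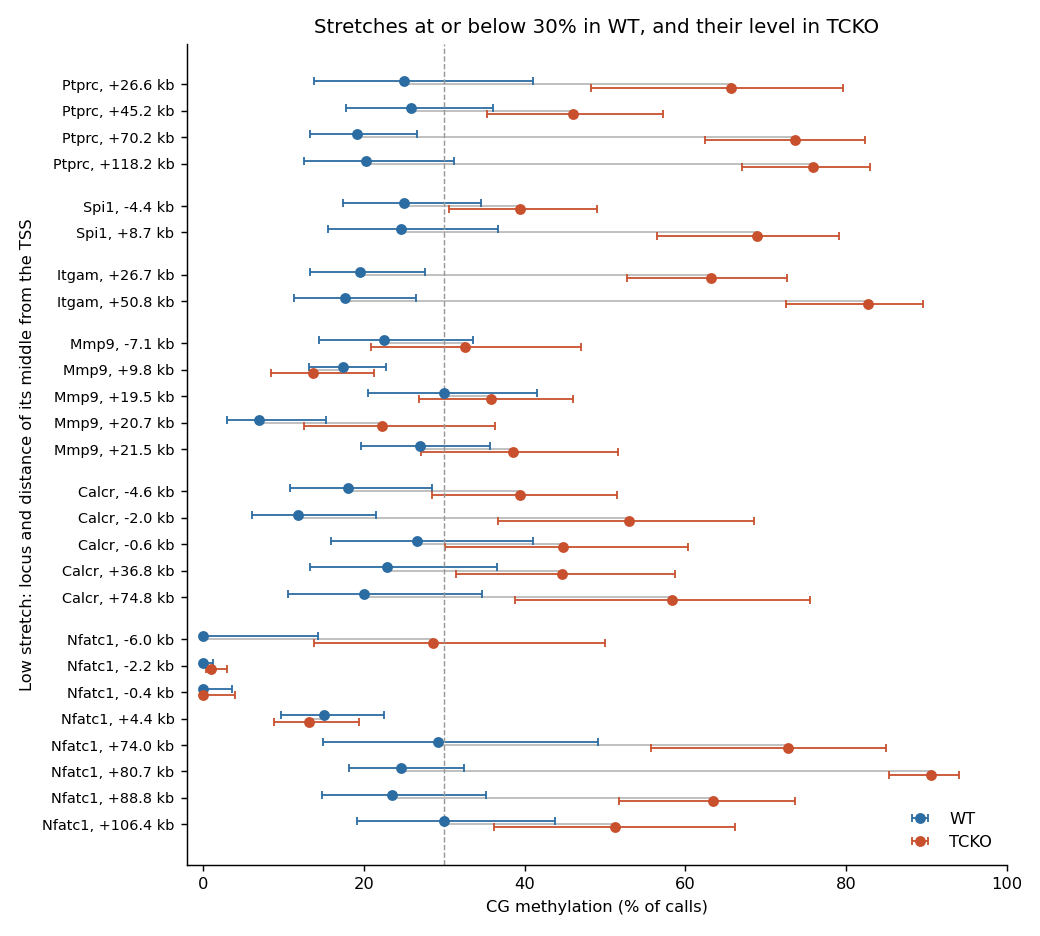
CG methylation level (x axis, % of calls) in WT and TCKO of each of the 26 stretches at or below 30% in WT (y axis, by locus and distance of the middle from the TSS); points are pooled levels, bars 95% Wilson intervals and the dashed line the 30% limit. At Ptprc and Itgam every stretch is at 46.1% or above in TCKO, while the Nfatc1 stretches near its promoters and the Mmp9 stretch 9820 bp from the TSS are at 13.6% or below in TCKO.

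By the TCKO level, only 9 bins of the loci were at or below 30%, against 32 by the WT level, and they formed 7 stretches at 3 loci, Nfatc1 (5 bins), Mmp9 (3 bins) and Ptprc (1 bin). Their median difference was 0 points. Fewer low stretches were thus found at these loci in the TCKO library.

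The limit on testable bins left out CpG-poor and thinly read sequence, so the loci were also read with every bin of at least 10 calls in each library. Then 1744 (67.9%) of the bins with a CG could be used, 170 were low in WT, and 85 stretches were found at all 10 loci. Of the low bins 118 had a higher and 25 a lower level in TCKO, and their median difference was 11.5 points, beside 16.6 over the genome. Over the genome 451907 of 6267810 bins of at least 10 calls were low in WT. Of these, 333026 had a higher and 56716 a lower level in TCKO. In Csf1r intron 1, a bin 1048 bp from the nearest TSS had 3.85% (26 calls) in WT and 64.3% (14 calls) in TCKO, and one 2848 bp from it 0% (22 calls) and 69.2% (13 calls). Around the inner TSS of Acp5 a stretch of 1000 bp had 4.97% (181 calls) and 14.3% (91 calls). In Mmp9, a stretch of 1200 bp that includes exon 3 had 5.63% (213 calls) and 5.51% (127 calls). One of 1000 bp just upstream of the Mmp9 gene start, within a TSS window that had 53.3% as a whole, had 24.4% (119 calls) and 19.8% (106 calls). By contrast, the stretch 9580 bp upstream of the Mmp9 gene start had 8.33% (60 calls) and 56.9% (58 calls), and a thinly read one 17120 bp downstream of that start 18.2% (11 calls) and 80% (10 calls). At Cd68 all 4 stretches, and at Oscar 1 of 3, lay within 1 kb of the TSS of another gene. The 15 stretches within 1 kb of any TSS had a median difference of 2.54 points and the 70 others of 32.1 points.

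Short strings of letters that match known factors were searched on both strands of the 32 low bins. The Runt string AACCACA was in none of them, beside 5.04% of all testable bins and 6.95% of the distal low bins of the genome. The PU.1 string GAGGAA was in 10 (31.2%), beside 17.9% and 21.2%. The AP-1 string TGANTCA was in 3 (9.38%), beside 5.83% and 9.97%. None of the strings is contained in another, and a match is a description of sequence and not a binding site.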

How the data were processed

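CG methylation was measured by WGBS in 1 WT and 1 TCKO library, assigned by the genotype in their labels. Per the submitters' notes, BSMAP 2.74 was the aligner and GRCm38 the build; reads that mapped to 1 place were kept. The authors deposited counts, not normalized: for each CG cytosine the methylated calls and all calls; 5mC and 5hmC are not separated. Here the counts were pooled over TSS windows and gene bodies of all protein-coding genes (GENCODE M21) and over 200 bp bins of the nuclear chromosomes. TSS windows and gene bodies with at least 20 calls in each library were tested with the 2-sided Fisher exact test. Bins were tested in the same way by the limits for testable bins given above, with no minimum of 20 calls. P-values were adjusted by Benjamini-Hochberg over the whole genome. Stretches bridged up to 2 bins that were not testable. Intervals of differences are Newcombe intervals; after 0 methylated calls the limit is 3 calls of the total. The genes and lists were chosen with earlier results of these data known. All 10 genes were named; from the other lists, genes called by over 20 points and the lowest in WT; some list genes are not reported here. On simulated data, 164 (82%) of 200 chromosome 19 bins changed by 55 points were recovered among 67006, and 1 unchanged bin was called. The simulated calls were independent draws from the WT levels, adjusted over chromosome 19 alone. They held no shared reads and no variation between libraries, so the rate of false calls in the real data cannot be read from them. Python 3.11.15, numpy 2.4.6, scipy 1.17.1 and numba 0.67.0 were used.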

Additional observations from a re-analysis of the deposited data

How the results depend on the processing

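No paired analysis was possible because each genotype had 1 library, and no library could be left out. Of 95 alternatives for the TSS differences of single genes 76, and of 50 for the bodies 49, counted as unchanged. This meant the same side of the threshold without a change of sign, where a Nfatc1 difference of 0 counts as no change. With site levels averaged no test was run, and it meant a value within the 95% interval of the main difference. With 2 kb on each side of the TSS 6 genes were called higher, among them Csf1r but not Acp5 (7.45 points). For the alternative TSS settings the share of all genes called was not counted. The numbers called under them thus cannot be set beside all genes, and a wider window holds more calls. From 250 bp upstream to 50 bp downstream 8 genes were tested. There Csf1r (42.5 points) and Acp5 (18.2 points) were called, and Ptprc was 21.2 points higher without a call. Mmp9, Calcr and Nfatc1 were lower there, and not called. With plus strand cytosines alone, where Acp5 had too few calls to test, 0 were called. With the calls divided by 2, as if calls came in pairs, 1 was called, Csf1r, and Acp5 was not. The called difference at Acp5 turned, as it decreased by 3.97 points with site levels averaged, and that of Mmp9, not called at the gene start, was 21.1 points higher and called at its inner TSS. Differences that were not called at the gene start also changed sign at Nfatc1 with 2 kb on each side (5.16 points), at Calcr with 250 bp upstream to 50 bp downstream (−4.55), with minus strand cytosines (−1.16) and at the TSS 1084 bp downstream (−0.74), and with minus strand cytosines at Ptprc (−0.88) and Mmp9 (0.99). With site levels averaged Spi1 had −2.58 and Mmp9 4.90 points. The bins called higher numbered 48 at a limit of 20 points (with 1 called lower), 5 at 60 points, 43 at a mean of 1 call per cytosine and 5 at a mean of 10; as shares of the testable bins of the loci, beside those of all bins, these were 7.57% beside 6.22%, 0.789% beside 0.730%, 2.87% beside 2.64%, and 2.99% beside 1.94%. Low stretches numbered 7 at a WT limit of 10%, 13 at 20% and 73 at 50%, when all 10 loci held one, and 85 at 10 loci with bins of at least 10 calls. Chosen by the TCKO level they numbered 7 at 3 loci, with a median difference of 0. Looser limits keep more bins and stricter ones fewer by construction; other causes were not tested. Of the loci's bins with a CG, 75.3% had too few cytosines or too few calls to test.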

Other observations

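Within the 10 kb flanks lie promoters of other genes. With bins of at least 10 calls those of Mpdu1, Eif4a1, Elof1 and Ndufa3 were low in both libraries, while Sox15 was low in WT and higher in TCKO. Mpdu1, beside Cd68, had 0.417% (240 calls) in WT and 3.53% (85 calls) in TCKO over the stretch at its TSS. Eif4a1, a translation initiation factor gene on the other side of Cd68, had 0.958% (313 calls) and 2.03% (344 calls). Elof1, downstream of Acp5, had 0.719% (139 calls) and 2.34% (171 calls), and Ndufa3, a respiratory complex I subunit gene upstream of Oscar, 0% (178 calls, up to 1.69%) and 2.54% (118 calls). At Sox15, a transcription factor gene, the stretches 414 bp upstream and 386 bp downstream of the TSS had 12.5% (32 calls) and 13.3% (90 calls) in WT and 51.9% (27 calls) and 27.1% (85 calls) in TCKO. These genes were named after their values were seen.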
